A study of Danio rerio with 24 samples.

Results

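The genes described here are 9 zebrafish genes of the germ plasm and of the germ cells that inherit it: buc, ddx4, tdrd7a, nanos3, dazl, dnd1, piwil1, piwil2 and ca15b. They were chosen by name, and a transcript cluster on the array counted as theirs where the gene was its only symbol in the array annotation. This gave 11 transcript clusters, among 20856 clusters with 1 gene symbol (19298 genes) and 61240 clusters tested. Clusters 12951166 and 12958944 both carried nanos3, and clusters 13248142 and 13255383 both carried piwil1. Each other gene had 1 cluster, and every cluster of the 9 genes entered every test.

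Germ plasm is a mass of RNA and protein laid down in the egg, and in zebrafish the few cells that inherit it during cleavage become the primordial germ cells. Its protein Bucky ball gathers the material, and its granules hold helicases, Tudor proteins, PIWI proteins and the RNAs of germ cell regulators. Around the maternal-to-zygotic transition the embryo starts its own transcription and clears much of the RNA that the mother supplied, and in this species germ plasm RNAs are known to last longer in germ cells than in the somatic cells around them.

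Whole embryos of the wildtype 5D line were exposed in glass beakers from 0.75 h post-fertilization (hpf), the 2-cell stage, to TDCIPP, the organophosphate flame retardant tris(1,3-dichloro-2-propyl) phosphate, or to vehicle. The 4 groups were embryos in 2 µM TDCIPP collected at 6 hpf, embryos in 0.1% DMSO collected at 6 hpf, embryos in 2 µM TDCIPP collected at 2 hpf and embryos in 0.1% DMSO collected at 2 hpf. The paper states that TDCIPP stocks were made in DMSO. The final DMSO percentage of the TDCIPP solutions was not given in the sources used here. Each group had 3 pools of 25 embryos from separate beakers, and the RNA of each pool was hybridized to 2 arrays whose log2 signals were averaged, so that n is 3 pools per group throughout. The comparisons asked whether TDCIPP altered these transcripts at 2 hpf, during cleavage, and at 6 hpf, the time of the gastrula in unexposed embryos. They also asked how the transcripts differed between these times, which are called stages here. The paper reports that TDCIPP delayed or arrested epiboly, with toxicity at the concentration used here similar to that at the lower concentration it scored. Pools are labelled by time only, so delay and treatment were not separated in TDCIPP embryos at 6 hpf. The part of a delay in the differences that involve these pools was not tested.

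A pool holds all cells of 25 embryos, of which germ cells are a small share. Fewer cells of a type and less RNA per cell cannot be told apart in such pools. Array medians were 4.47 to 4.54 at 6 hpf and 4.32 to 4.46 at 2 hpf, and arrays of the same pool correlated at 0.985 to 0.988 at 6 hpf and at 0.990 to 0.993 at 2 hpf. Medians were thus higher at 6 hpf than at 2 hpf, by 0.141 in TDCIPP embryos and 0.128 in DMSO embryos, and differences between the stages are relative to the scale that the normalization set. Markers for the stage followed the labels: of 22 measured markers of the enveloping layer, yolk syncytial layer and germ layers, 21 rose and 1 (tp63) fell at 6 hpf against 2 hpf in DMSO embryos. Of 5 measured genes of late or adult cell types, none was called in that comparison by limma, none had an unadjusted p under 0.05, and their mean log2 signal lay between 3.85 and 3.96 at 6 hpf and between 3.80 and 4.10 at 2 hpf. In TDCIPP embryos 1 of these 5 rose, where 20.7% of all clusters were called higher.

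At 6 hpf, 7 of the 9 genes were lower than at 2 hpf in DMSO embryos: buc, ca15b, dazl, piwil2, nanos3, dnd1 and tdrd7a. The declines spanned 7.05-fold for buc to 2.48-fold for tdrd7a. The median of the 9 log2 differences was -1.42, against 0.0148 over all clusters and -0.0805 over those with 1 symbol. The remaining 2 genes, ddx4 and piwil1, had smaller log2 differences of -0.12 and -0.32 that did not pass the test. The same 7 genes fell in TDCIPP embryos, where the median was -1.55, against 0.0329 over all clusters and -0.0593 over those with 1 symbol. Calls used an adjusted p under 0.1 in limma over all 61240 clusters (Benjamini-Hochberg). At that threshold 19.9% of all clusters were called lower in DMSO embryos and 19.5% in TDCIPP embryos. Of the 20856 clusters with 1 symbol, 31.8% were called lower in TDCIPP embryos and 32.2% in DMSO embryos. Among the 25470 clusters with a mean log2 signal of at least 5, as the genes named above had, the share called lower was 37.5% in either treatment. In each of the 7 genes the pools of 6 hpf and 2 hpf did not overlap in either treatment, which held in the lower direction for 21.4% of all clusters in TDCIPP embryos and 21.6% in DMSO embryos.

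**Figure D1:**
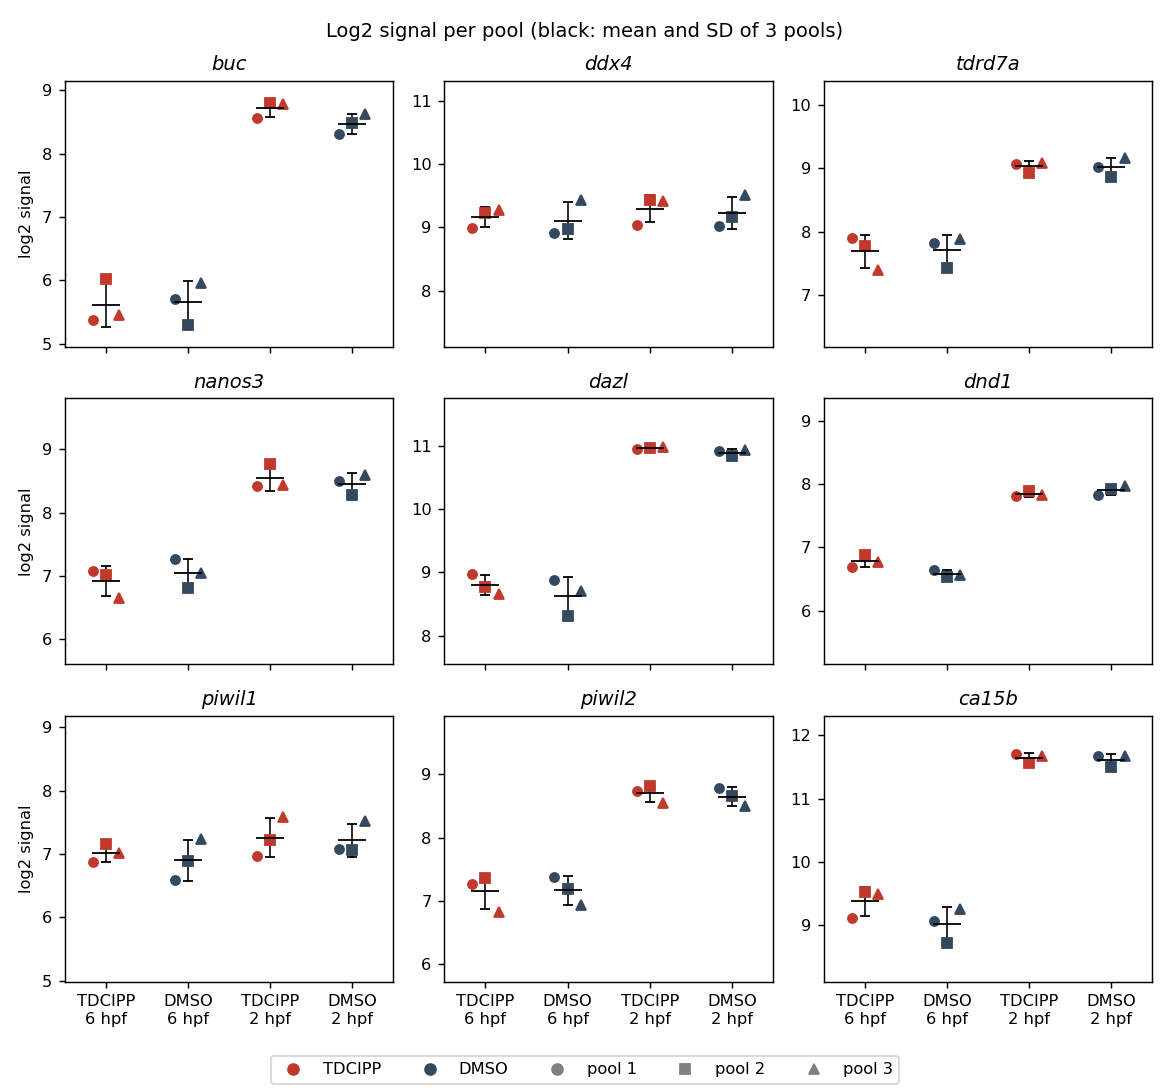
Log2 signal of the 9 genes in each pool (red for TDCIPP, dark blue for DMSO, with a marker shape for each pool number) in the 4 groups, with the mean and SD of 3 pools in black and every vertical axis spanning the same number of log2 units. The 6 hpf pools lie below the 2 hpf pools in 7 panels, and in the panels of ddx4 and piwil1 they overlap.

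buc encodes Bucky ball, the protein that builds the Balbiani body of the oocyte and gathers germ plasm, and it had the largest decline of the 9 genes in either treatment (cluster 13081690). In TDCIPP embryos its log2 signal was 5.37, 6.02 and 5.46 at 6 hpf, against 8.57, 8.80 and 8.79 at 2 hpf. In DMSO embryos it was 5.71, 5.30 and 5.96 at 6 hpf, against 8.31, 8.49 and 8.62 at 2 hpf. Every 6 hpf pool lay more than 2 log2 units below every 2 hpf pool, while the treatments overlapped at each stage. The log2 difference was -3.10 ± 0.18 (SE) in TDCIPP embryos (8.58-fold lower, adjusted p = 1.13e-08) and -2.82 ± 0.18 in DMSO embryos (7.05-fold lower, adjusted p = 2.85e-08). Only 0.336% of the clusters with 1 symbol had a lower difference in DMSO embryos. The signal was less repeatable at 6 hpf, where arrays of the same TDCIPP pool differed by up to 0.904 and those of a DMSO pool by up to 0.593.

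The germ granule genes split. ddx4 encodes Vasa, the DEAD-box RNA helicase by which germ cells are most often recognized (cluster 12960758). In TDCIPP embryos its log2 signal was 8.99, 9.23 and 9.27 at 6 hpf, against 9.04, 9.43 and 9.42 at 2 hpf. DMSO embryos had 8.91, 8.97 and 9.44 at 6 hpf, against 9.02, 9.16 and 9.51 at 2 hpf. All 4 groups overlapped, and the spread within a group was wider than the distance between stages. The difference was -0.13 (95% interval -0.491 to 0.228, adjusted p = 0.614) in TDCIPP embryos and -0.12 (-0.478 to 0.241, adjusted p = 0.652) in DMSO embryos. A decline of the size measured for any of the 7 genes above lay outside these intervals.

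tdrd7a encodes a Tudor domain protein that shapes germ granules (cluster 12945639). In TDCIPP embryos its log2 signal was 7.91, 7.77 and 7.39 at 6 hpf, against 9.07, 8.93 and 9.09 at 2 hpf. DMSO embryos had 7.82, 7.43 and 7.88 at 6 hpf, against 9.02, 8.87 and 9.17 at 2 hpf. The stages were about 1 log2 unit apart at their nearest pools. Pools were closer together at 2 hpf (SD 0.086 in TDCIPP and 0.148 in DMSO embryos) than at 6 hpf (SD 0.265 and 0.244). The difference was -1.34 ± 0.15 (adjusted p = 5.67e-06) in TDCIPP embryos and -1.31 ± 0.15 (adjusted p = 7.03e-06) in DMSO embryos.

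nanos3, dazl and dnd1 encode RNA-binding proteins that act on germ cell messages. Nanos3 represses translation and is needed to keep primordial germ cells, Dazl promotes translation of germ plasm RNAs, and Dead end (Dnd1) protects such RNAs from microRNA-430 and is needed for germ cell migration. All 3 fell, dazl the most.

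dazl (cluster 13074492) had log2 signals of 8.98, 8.76 and 8.66 at 6 hpf in TDCIPP embryos, against 10.94, 10.97 and 10.98 at 2 hpf. The DMSO values were 8.88, 8.31 and 8.71 at 6 hpf, against 10.91, 10.83 and 10.93 at 2 hpf. The 2 hpf pools were tightly grouped (SD 0.0201 in TDCIPP and 0.0535 in DMSO embryos), and the 6 hpf pools were more spread (SD 0.162 in TDCIPP and 0.291 in DMSO embryos). The difference was -2.16 ± 0.13 in TDCIPP embryos (4.46-fold lower, adjusted p = 1.5e-08) and -2.26 ± 0.13 in DMSO embryos (4.77-fold lower, adjusted p = 9.14e-09).

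For nanos3 the cluster with the higher signal (12958944) had log2 signals of 7.08, 7.02 and 6.64 at 6 hpf in TDCIPP embryos, against 8.42, 8.76 and 8.44 at 2 hpf. For DMSO embryos they were 7.26, 6.81 and 7.04 at 6 hpf, against 8.50, 8.27 and 8.59 at 2 hpf. Its stages did not overlap, with a difference of -1.62 ± 0.15 (adjusted p = 1.09e-06) in TDCIPP embryos and -1.42 ± 0.15 (adjusted p = 4.18e-06) in DMSO embryos. The other nanos3 cluster (12951166) gave a much smaller difference that was not called, -0.19 (adjusted p = 0.281) in TDCIPP embryos and -0.25 (adjusted p = 0.155) in DMSO embryos. The clusters of nanos3 therefore disagreed in size and in call, and which of them better follows the transcript was not tested.

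dnd1 (cluster 13013533) had log2 signals of 6.69, 6.88 and 6.77 at 6 hpf in TDCIPP embryos, against 7.80, 7.89 and 7.83 at 2 hpf. In DMSO embryos the values were 6.64, 6.53 and 6.56 at 6 hpf, against 7.83, 7.91 and 7.97 at 2 hpf. The stages were well apart and the pools of a stage close together. With a standard error of 0.087, the smallest among the 9 genes, the difference was -1.07 (adjusted p = 2.75e-07) in TDCIPP embryos and -1.32 (adjusted p = 3.01e-08) in DMSO embryos.

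PIWI proteins bind piRNAs, small RNAs that guide them to transposon transcripts in the germline, and zebrafish has the pair Piwil1 (Ziwi) and Piwil2 (Zili). Their transcripts behaved differently between the stages. piwil2 (cluster 13202737) had log2 signals of 7.26, 7.36 and 6.83 at 6 hpf in TDCIPP embryos, against 8.74, 8.82 and 8.55 at 2 hpf. In DMSO embryos it had 7.38, 7.19 and 6.93 at 6 hpf, against 8.79, 8.66 and 8.50 at 2 hpf. Every 6 hpf pool was more than 1 log2 unit below every 2 hpf pool. The difference was -1.55 ± 0.15 (2.93-fold lower, adjusted p = 1.69e-06) in TDCIPP embryos and -1.48 ± 0.15 (2.79-fold lower, adjusted p = 2.69e-06) in DMSO embryos.

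The brighter piwil1 cluster (13248142) had log2 signals of 6.87, 7.15 and 7.01 at 6 hpf in TDCIPP embryos, against 6.96, 7.23 and 7.58 at 2 hpf. In DMSO embryos it had 6.59, 6.88 and 7.23 at 6 hpf, against 7.07, 7.05 and 7.52 at 2 hpf. The pools of the stages overlapped in either treatment, and the difference was -0.25 (95% interval -0.652 to 0.158, adjusted p = 0.363) in TDCIPP embryos and -0.32 (-0.72 to 0.0896, adjusted p = 0.235) in DMSO embryos. The call in DMSO embryos turned on the treatment of the data. It passed when arrays were centred on their medians (-0.45, adjusted p = 0.0881), when both clusters of the gene were averaged (-0.36, adjusted p = 0.0477), with pools as random blocks (-0.32, adjusted p = 0.0902) and without pool 3 of DMSO embryos at 6 hpf (-0.48, adjusted p = 0.0738). With replicate numbers as a block it also passed (-0.32, adjusted p = 0.073 from limma). The dimmer piwil1 cluster (13255383) was called in DMSO embryos (-0.40, adjusted p = 0.0442) and not in TDCIPP embryos (-0.12, adjusted p = 0.589). The change of that cluster between stages differed by 0.28 between the treatments (95% interval -0.157 to 0.72, adjusted p = 1).

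ca15b encodes a carbonic anhydrase whose transcript is a marker of zebrafish primordial germ cells (cluster 12989072). In TDCIPP embryos its log2 signal was 9.12, 9.53 and 9.49 at 6 hpf, against 11.70, 11.57 and 11.68 at 2 hpf. Those of DMSO embryos were 9.08, 8.72 and 9.26 at 6 hpf, against 11.67, 11.50 and 11.67 at 2 hpf. The 2 hpf pools of both treatments sat close together, far above those of 6 hpf. The difference was -2.27 ± 0.14 in TDCIPP embryos (4.83-fold lower, adjusted p = 1.81e-08) and -2.59 ± 0.14 in DMSO embryos (6.03-fold lower, adjusted p = 4.44e-09).

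**Figure D2:**
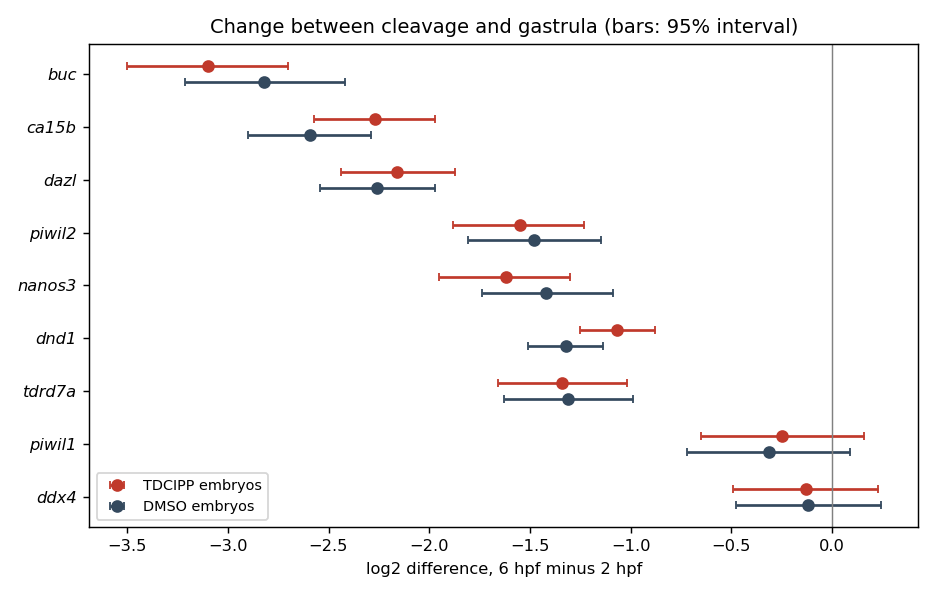
Log2 difference between 6 hpf and 2 hpf (horizontal axis, 6 hpf minus 2 hpf) of each gene in TDCIPP embryos (red) and DMSO embryos (dark blue), with 95% intervals from limma. The intervals of ddx4 and piwil1 cross 0, and those of the other 7 genes lie below it.

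Set in order of their decline in DMSO embryos, the genes ran buc, ca15b, dazl, piwil2, nanos3, dnd1, tdrd7a, piwil1 and ddx4. Neighbours in this order mostly did not differ beyond their intervals. In DMSO embryos the intervals of buc, ca15b and dazl overlapped each other (upper bounds -2.42, -2.29 and -1.97) and lay below those of piwil2, nanos3, dnd1 and tdrd7a (lower bounds -1.81, -1.74, -1.51 and -1.63). The upper bounds of that second set, between -1.15 for piwil2 and -0.99 for tdrd7a, lay in turn below the lower bounds of piwil1 (-0.72) and ddx4 (-0.478). These sets were drawn after the values were seen, and each gene was placed by its brightest cluster. The interval of the other nanos3 cluster (-0.513 to 0.0216) lay above those of the second set. In TDCIPP embryos the interval of nanos3 (-1.95 to -1.30) reached that of dazl (-2.44 to -1.87), so the first break was not present there.

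**Figure D3:**
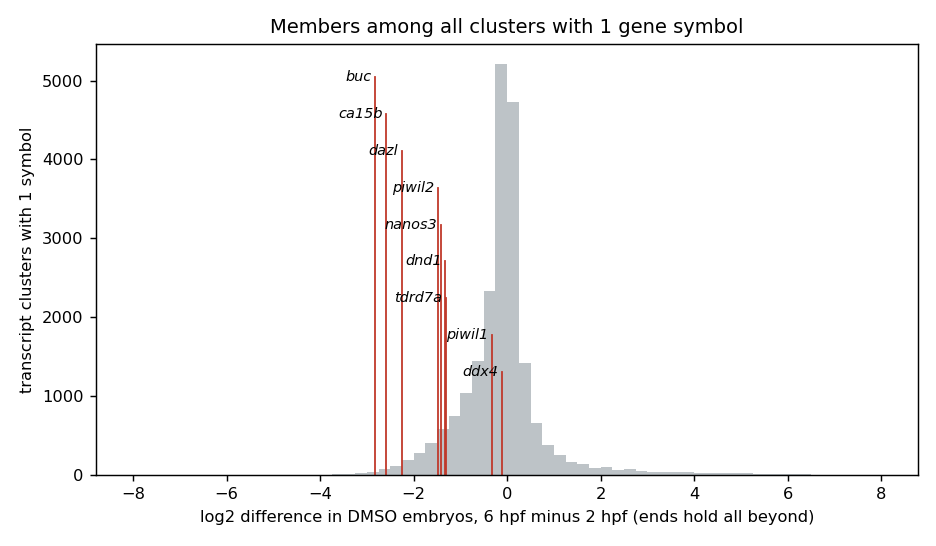
Number of transcript clusters with 1 symbol (vertical axis) by their log2 difference between 6 hpf and 2 hpf in DMSO embryos (horizontal axis, 6 hpf minus 2 hpf), with a red line at each of the 9 genes. The line of buc at -2.82 stands in the lower tail, with 0.336% of the 20856 clusters below it, and that of ddx4 at -0.12 stands near the centre, with 45.8% below it.

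TDCIPP did not change any of the 9 genes past the threshold at 6 hpf. By limma, 0 of 9 genes were called, with 0 of 9 at an unadjusted p under 0.05, and the smallest adjusted p was 0.913. Over all clusters 0% were called and 5.48% had an unadjusted p under 0.05. The one-way analysis of variance that the study's methods name also called 0 of the 9 genes. This held on pool means and with each array as a sample, although over all clusters it called 2 and 68. Arrays of a pool carry the same RNA, so the 68 do not rest on separate samples. The count of the 9 genes at an unadjusted p under 0.05 depended on the model. It was 2 in 1 limma fit of all 12 pools, where 4001 of 61240 clusters passed. It was 1 with array 1 alone, random pool blocks, trend and robust options, and the methods' test on pool means or arrays. Over all clusters, 3552, 3853, 3451, 3447 and 4447 of 61240 passed in these models, in that order. The log2 differences spanned -0.12 for nanos3 to 0.36 for ca15b, with a median of 0.0564 against -0.000732 over all clusters, and 5 of the 9 were above 0, against 49.8% of all clusters.

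ca15b had the largest difference at 6 hpf. Its log2 signals of 9.12, 9.53 and 9.49 in TDCIPP embryos against 9.08, 8.72 and 9.26 in DMSO embryos overlapped, since pool 1 of TDCIPP lay below pool 3 of DMSO. The difference was 0.36 (95% interval -0.018 to 0.734, adjusted p = 0.913), and arrays of the same TDCIPP pool differed by up to 0.567. dnd1 was the single gene whose pools did not overlap at 6 hpf, with 6.69, 6.88 and 6.77 in TDCIPP embryos against 6.64, 6.53 and 6.56 in DMSO embryos, a difference of 0.20 (-0.0289 to 0.422, adjusted p = 0.936). At 6 hpf, 11% of all clusters did not overlap in either direction and 5.46% of all clusters did not overlap and were higher, so 1 gene of 9 is near that background. Arrays of the same DMSO pool differed by up to 0.361 for dnd1, more than the difference, and with array 2 of each pool alone the direction turned (-0.0279). With 3 pools against 3, a two-sided exact permutation test cannot go below p = 0.1.

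For the other 7 genes the difference at 6 hpf lay between -0.12 and 0.17 in the cluster that represents each gene. It was 0.17 for dazl (95% interval -0.192 to 0.528), 0.11 for piwil1 (-0.267 to 0.484) and 0.06 for ddx4 (-0.298 to 0.411). No order among these 3 genes can be read from intervals that overlap so widely. For piwil2 it was -0.02 (-0.397 to 0.365), for tdrd7a -0.02 (-0.40 to 0.362), for buc -0.04 (-0.514 to 0.439) and for nanos3 -0.12 (-0.477 to 0.233). The second cluster of nanos3 had the opposite sign (0.12, -0.202 to 0.441), and the second cluster of piwil1 had a larger difference than the first (0.31, -0.044 to 0.672, adjusted p = 0.935 from limma). The widest bounds at 6 hpf were -0.514 for buc and 0.734 for ca15b.

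**Figure D4:**
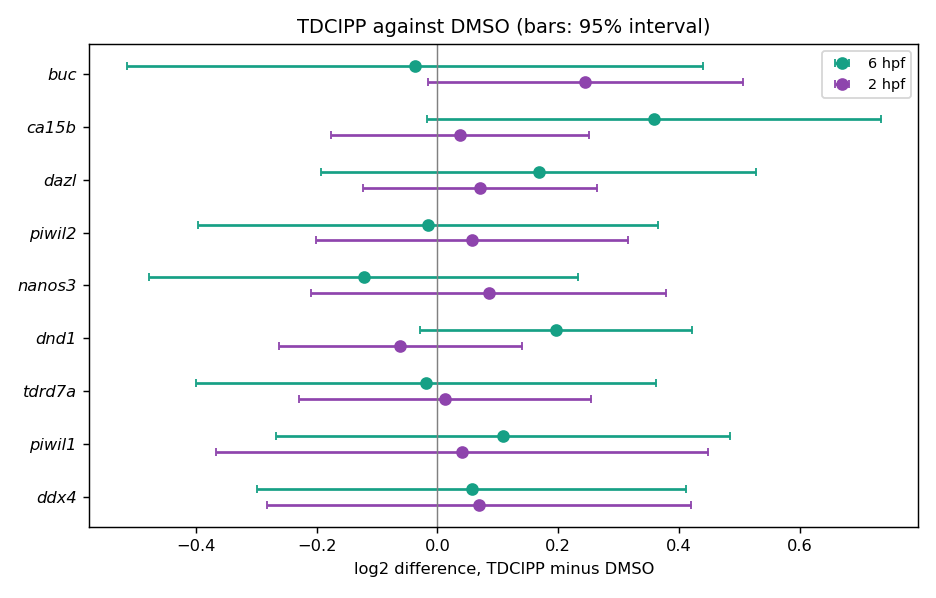
Log2 difference between TDCIPP and DMSO embryos (horizontal axis, TDCIPP minus DMSO) of each gene at 6 hpf (green) and 2 hpf (purple), with 95% intervals from limma. All 18 intervals include 0, and those of ca15b at 6 hpf and buc at 2 hpf reach least far below it.

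At 2 hpf the intervals were narrower for most genes, and again limma called 0 of 9 genes, with 0 of 9 at an unadjusted p under 0.05 and an adjusted p of 1 for each. Of all clusters 0% were called and 2.77% had an unadjusted p under 0.05. The methods' test called 0 of the 9 genes on pool means and on arrays. With a replicate block, trend and robust options, or the methods' test on arrays, 1 of the 9 had an unadjusted p under 0.05. Over all clusters, 1994, 1611 and 2533 of 61240 had such a p in these models, in that order. The mean was higher in TDCIPP embryos for 8 of the 9 genes, against 48.4% of all clusters, with a median of 0.0575. The 9 genes share their pools, so these directions are not separate observations.

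buc had the largest difference at 2 hpf, with 8.57, 8.80 and 8.79 in TDCIPP embryos against 8.31, 8.49 and 8.62 in DMSO embryos. Pool 1 of TDCIPP lay below pool 3 of DMSO, and the difference was 0.25 (95% interval -0.0155 to 0.506). dazl did not overlap at 2 hpf, with 10.94, 10.97 and 10.98 in TDCIPP embryos against 10.91, 10.83 and 10.93 in DMSO embryos, but the nearest pools almost touched and the difference was 0.07 (-0.124 to 0.264). Pools did not overlap in the higher direction in 3.1% of all clusters. dnd1 was the gene with a lower mean in TDCIPP embryos, by -0.06 (-0.263 to 0.14).

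The effect of TDCIPP was also compared between the stages, which is the same as asking whether the decline between the stages differed with treatment. No gene passed: limma called 0 of 9, and 0 of 9 had an unadjusted p under 0.05. Over all clusters 0% were called and 4.32% had such a p. The smallest unadjusted p among the 9 genes was 0.0549, for dnd1. With array 1 alone, repeated quantile normalization, a mean log2 signal of at least 5 or the methods' test, 1 of 9 was under 0.05. Of 61240 clusters, 3689 were under 0.05 with array 1 alone and 2743 with repeated quantile normalization. By the methods' test 2848 were on pool means and 3795 on arrays. Among clusters with a mean log2 signal of at least 5, 1095 of 25470 were. The effect at 6 hpf exceeded that at 2 hpf by 0.32 for ca15b (95% interval -0.108 to 0.751) and by 0.26 for dnd1 (-0.00624 to 0.523), and for buc the difference was -0.28 (-0.843 to 0.277). For the other 6 genes it lay between -0.21 for nanos3 and 0.10 for dazl.

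Likeness of pattern was measured as the root mean square difference between the 12 pool values of a gene and those of each other gene with 1 symbol, each centred on its own mean, and is given here for the 4 genes with the largest decline in DMSO embryos. Closest to buc were pdp1 (0.158), bmp15 (0.16) and sun1a (0.164), of which bmp15 encodes an oocyte growth factor. sgo2 (0.106), mutyh (0.108) and atg4b (0.125) were closest to ca15b, and sgo2 encodes shugoshin, a protector of centromeric cohesion. dazl was closest to pgm2l1 (0.0999), mtmr8 (0.119) and ttyh2l (0.122), and piwil2 to srek1 (0.0913), mcm9 (0.0928) and mrpl47 (0.093). Among the 9 genes themselves, ddx4 and piwil1 were the closest pair (0.132), followed by nanos3 and piwil2 (0.165) and by tdrd7a and nanos3 (0.169), while buc and ddx4 were the farthest apart (1.43). The pools span stages, so likeness here is mostly likeness of the difference between stages.

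Other genes of the germline were taken from 4 lists written from general knowledge, with earlier results of these data known. Of their 73 genes, 63 were matched to a cluster, and a gene with several clusters was represented by the brightest. Among genes named below, tdrd6a, gpat2 and figla had 2 clusters and buc2l had 3. Their other clusters are not given here. For PIWI, piRNA and Tudor genes, 19 of 23 were measured, and at 6 hpf against 2 hpf in DMSO embryos 13 fell, 3 rose and 3 were not called (median log2 difference -0.77). This compares with 19.9% of all clusters called lower and 20% called higher, and with 32.2% called lower among clusters with 1 symbol. The 4 with the largest change were tdrd6a, a Tudor protein that binds Bucky ball (7.06 ± 0.16 at 6 hpf against 9.999 ± 0.21 at 2 hpf, SD, n = 3, difference -2.94, adjusted p = 1.03e-08), tdrkh, a mitochondrial Tudor protein of piRNA trimming (-2.09), fkbp6, a co-chaperone of the piRNA pathway in mouse (-1.90), and gpat2, a mitochondrial protein needed for piRNA production in mouse (8.57 ± 0.087 at 6 hpf against 6.69 ± 0.22 at 2 hpf, 1.88). In TDCIPP embryos 12 of the 19 fell and 4 rose, and tdrd6a fell by 3.16 on the log2 scale. There 19.5% of all clusters were called lower and 20.7% higher, and 31.8% of clusters with 1 symbol were called lower.

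Among localised germ plasm RNAs and the factors that bind them, 18 of 21 were measured, and in DMSO embryos 10 fell, 3 rose and 5 were not called (median -0.417), beside the same shares of 19.9% lower and 20% higher over all clusters and 32.2% lower among clusters with 1 symbol. zar1l, related to the oocyte translation regulator Zar1, fell by 2.92 on the log2 scale, to 7.55 ± 0.15 at 6 hpf against 10.46 ± 0.14 at 2 hpf. buc2l, a relative of buc, fell by 2.58 (8.48 ± 0.31 at 6 hpf against 11.05 ± 0.22 at 2 hpf), and rbpms2a, whose RNA-binding product interacts with Bucky ball, fell by 1.84. cxcr4b was counted in this list although it encodes a chemokine receptor and not an RNA-binding factor. Germ cells steer by this receptor, and other migrating cells also use it. cxcr4b rose to 7.76 ± 0.094 at 6 hpf, against 4.01 ± 0.33 at 2 hpf (adjusted p = 6.13e-09 from limma). Its 2 hpf signal lay below the array medians of that stage, so the size of the rise is not well measured. In TDCIPP embryos 11 of the 18 fell and 3 rose, where 31.8% of clusters with 1 symbol were called lower and 20.7% of all clusters higher.

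The guidance and niche genes, which act in the somatic cells around germ cells, numbered 9 measured of 10 listed, of which 4 rose, 3 fell and 2 were not called in DMSO embryos (median 0.015). The share called lower is near the 32.2% of clusters with 1 symbol, and 20% of all clusters were called higher. No difference between the lists was tested. cxcl12a, the chemokine that attracts germ cells, rose by 4.11 (9.16 ± 0.17 at 6 hpf against 5.05 ± 0.17 at 2 hpf), and its paralogue cxcl12b also rose (5.68 ± 0.68 at 6 hpf against 4.48 ± 0.12 at 2 hpf). ackr3b, the receptor that takes up Cxcl12a from the tissue, rose to 8.56 ± 0.18 at 6 hpf, against 3.60 ± 0.045 at 2 hpf (adjusted p = 1.04e-11), and its 2 hpf signal also lay below the array medians. kita, a receptor tyrosine kinase, fell by 0.83 (adjusted p = 0.00351), with 4.11 ± 0.22 at 6 hpf against 4.94 ± 0.38 at 2 hpf. Its 6 hpf signal lay below the array medians of that stage, so the size of the fall is not well measured. The count of genes that fell also holds ackr3a and hmgcra. ackr3a had 2.35 ± 0.035 at 6 hpf against 2.60 ± 0.21 at 2 hpf, both below the array medians. For hmgcra the pools of the stages overlapped (difference -0.493, adjusted p = 0.0659 from limma). In TDCIPP embryos 4 rose and 2 fell, where 20.7% of all clusters were called higher and 31.8% of clusters with 1 symbol lower.

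Of the meiosis and gonad genes, 17 of 19 were measured, and in DMSO embryos 7 fell, 2 rose and 8 were not called (median -0.167). Over all clusters 19.9% were called lower and 20% higher, and among clusters with 1 symbol 32.2% were called lower. Every gene of the list called lower had a mean log2 signal of at least 5, where 37.5% of clusters were called lower. Other genes of the list had signals under 5, so that share does not describe the whole list. The list was not tested against any of these shares. The 4 with the largest change are all genes of the oocyte. bmp15 fell by 2.93 (6.71 ± 0.27 at 6 hpf against 9.65 ± 0.035 at 2 hpf), nobox, an oocyte homeobox gene, by 1.22, and gdf9, an oocyte growth factor, by 1.11. figla, a transcription factor of the oocyte, was at 5.55 ± 0.32 at 6 hpf against 6.64 ± 0.21 at 2 hpf (adjusted p = 9.64e-04). sycp3, 1 of the 2 that rose in DMSO embryos, had 3.59 ± 0.21 at 6 hpf against 3.24 ± 0.074 at 2 hpf. Both signals lay below the array medians of their stages, so the size of its rise is not well measured. In TDCIPP embryos 8 of the 17 fell and 1 rose. There 19.5% of all clusters were called lower and 20.7% higher, and 31.8% of clusters with 1 symbol were called lower.

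**Figure D5:**
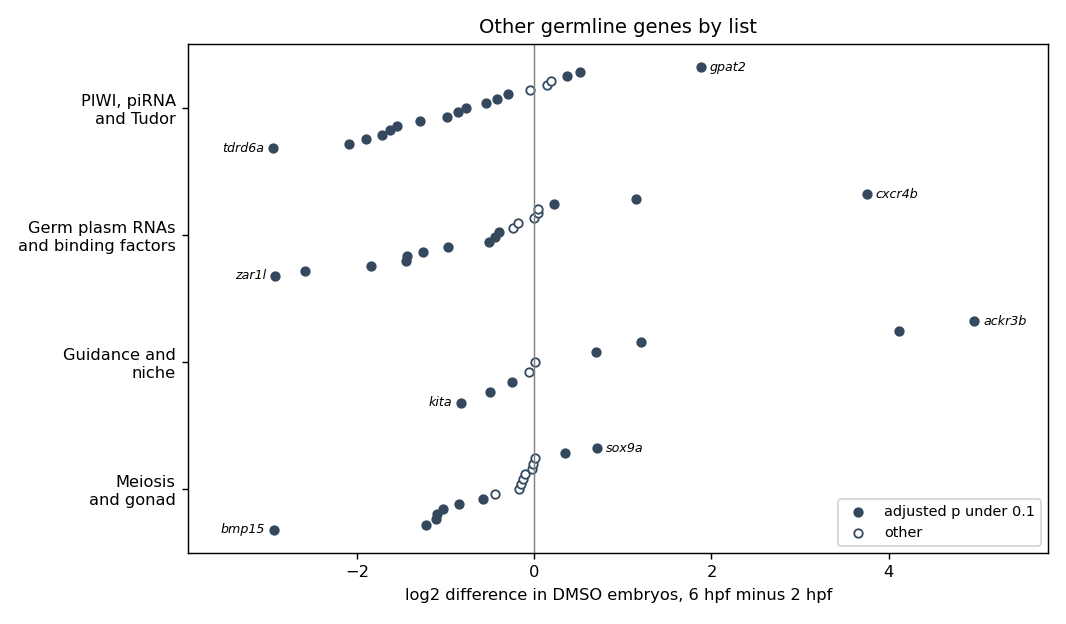
Log2 difference between 6 hpf and 2 hpf in DMSO embryos (horizontal axis, 6 hpf minus 2 hpf) of the measured genes of 4 germline lists, ordered within each list, with filled points at an adjusted p under 0.1 in limma. The lowest and the highest gene of each list are named, from tdrd6a at -2.94 to gpat2 at 1.88 in the PIWI list and from kita at -0.83 to ackr3b at 4.96 among guidance and niche genes.

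None of these 63 genes was called for TDCIPP against DMSO at either stage by limma. At an unadjusted p under 0.05 there were 3 at 6 hpf, where 5.48% of all clusters were, and 3 at 2 hpf, where 2.77% were. The smallest p at 6 hpf belonged to ackr3b, with 9.31 ± 0.32 in TDCIPP embryos against 8.56 ± 0.18 in DMSO embryos (SD, n = 3). Its pools did not overlap, and the difference of 0.75 had an adjusted p of 0.681 from limma. At 2 hpf it belonged to mov10b.1, from the family of MOV10 RNA helicases, with 3.32 ± 0.062 in TDCIPP embryos against 3.57 ± 0.034 in DMSO embryos (difference -0.25, adjusted p = 1 from limma). Both signals lay below the array medians of 2 hpf, so the size of the mov10b.1 difference is not well measured. The median difference of each list at 6 hpf lay between 0.0305 and 0.0624. Of the 22 embryonic cell type markers at that stage, 0 were called by limma and 7 had an unadjusted p under 0.05, against 5.48% of all clusters. The mean over the 5 enveloping layer markers was 10.4 to 10.7 in TDCIPP pools and 10.2 to 10.4 in DMSO pools, and that over the 4 ectoderm markers 7.52 to 7.67 in TDCIPP pools and 7.68 to 8.01 in DMSO pools. Pools of the treatments overlapped for yolk syncytial layer markers (8.65 to 8.91 in TDCIPP, 8.52 to 8.95 in DMSO). They also did for endoderm markers (7.66 to 7.95 in TDCIPP, 7.52 to 8.16 in DMSO). Mesoderm and organizer markers had 10.1 to 10.2 in TDCIPP and 9.86 to 10.1 in DMSO pools. The ectoderm markers did not move together: the log2 difference was 1.33 for foxi1, -1.61 for tfap2c, -0.53 for tp63 and -0.365 for sox3, and none was called. The part of these markers in the treatment values of the germ plasm genes was not tested.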

How the data were processed

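RNA of 12 embryo pools was hybridized to 24 Zebrafish Gene 1.0 ST arrays. Gene-level RMA in Expression Console was run by the authors (version not given in the sources used here), and the deposited values are log2 signals for 75212 rows. Rows without annotation whose number lies below the first annotated cluster (13972) were left out, and 61240 were tested. Symbols were updated by gene ID for 20323 of the 20856 clusters with 1 symbol. Cluster positions are not given here.

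Arrays of a pool were averaged. limma 3.58.1 in R 4.3.3 (lmFit, eBayes, two-sided, Benjamini-Hochberg) compared TDCIPP with DMSO within each time point, and the stages and the difference of effects in a fit of all 12 pools. A gene with several clusters was represented by the brightest. The text names all 9 genes, the 4 called genes with the largest absolute difference between stages in each list, the gene with the smallest treatment p per time point, and the 3 most alike genes of 4 members. Named outside these rules were the ectoderm markers foxi1, tfap2c, tp63 and sox3, and the list genes sycp3, ackr3a and hmgcra. The other genes of the lists were only counted. Genes, lists and rules were chosen with earlier results of these data known. The fits were checked on simulated data. Alternatives concerned the model (a replicate block, random pool blocks, trend and robust options, the one-way analysis of variance of the study's methods, other samples in the fit), the arrays (1 array per pool, median centring, repeated quantile normalization), the clusters (a mean log2 signal of at least 5, 1 symbol only, averaged clusters of a gene) and leaving out each pool. P-values rest on the spread between beakers. Whether these belonged to 1 experiment is not given in the sources used here. Figures were drawn with matplotlib 3.10.9.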

Additional observations from a re-analysis of the deposited data

How the results depend on the processing

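The 7 declines between the stages were called in TDCIPP and DMSO embryos under every alternative run, and no treatment effect on the 9 genes was called under any. Leaving out a pool gave 7 to 8 called genes in DMSO embryos and 7 in TDCIPP embryos, and 0 for the treatment. piwil1 in DMSO embryos was also called with pools fitted as random blocks (adjusted p = 0.0902) and with a replicate block (0.073), which made 8 called genes there. Replicate numbers shared by groups were not taken as pairs, since the labels do not say that they mark pairs. At 6 hpf the deviations of same-numbered pools correlated at 0.18, 0.12 and 0.089, each best with its own number. At 2 hpf they correlated at 0.25, 0.052 and 0.12. There each TDCIPP pool also matched the DMSO pool of its own number best, while DMSO pool 2 matched TDCIPP pool 3 best. Whether same-numbered pools share a source was not tested. The replicate block called 0 clusters for the treatment at either time and 24636 (DMSO) and 24805 (TDCIPP) between the stages, against 24442 and 24659 without it, and it changed no other call of the 9 genes. Over all clusters, the count called for TDCIPP at 6 hpf was 0 on pool means, 52 with a random pool block, 1 with array 1 alone, 2 and 68 by the methods' test on pool means and on arrays, 14 with trend and robust options, 17 in 1 fit of all 12 pools, and 0 to 2 when a pool was left out (2 without DMSO 6 hpf pool 3). For the difference of effects it was 8 with a random pool block, 5 by the methods' test on arrays, 2 with trend and robust options, and 0 to 3 when a pool was left out (3 without TDCIPP 6 hpf pool 2). The methods' test on arrays took the 2 arrays of a pool as separate samples, though they carry the same RNA. With only the 20856 clusters with 1 symbol, 10485 (DMSO) and 10595 (TDCIPP) were called between the stages, from fewer clusters tested.

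Some uncalled values changed sign, and the cause was not tested. For TDCIPP against DMSO at 2 hpf, piwil2 was -0.0297 on array 1 alone, tdrd7a was -0.00483 after quantile normalization again, and on array 2 alone ddx4 was -0.0112, tdrd7a -0.0923, dazl -0.0395, piwil1 -0.0299 and ca15b -0.0078. At 6 hpf, buc was 0.0328 and tdrd7a 0.0318 on array 1 alone, and dnd1 was -0.0279 and piwil2 0.0119 on array 2 alone. The difference of effects was -0.0708 for piwil1 on array 1 alone, and 0.0852 for ddx4 and 0.0224 for tdrd7a on array 2 alone. Leaving out a pool moved the 2 hpf treatment difference between -0.0176 and 0.0748 for ca15b, -0.0364 and 0.208 for ddx4, -0.0259 and 0.155 for nanos3, -0.12 and 0.192 for piwil1, -0.0179 and 0.132 for piwil2, and -0.0615 and 0.0864 for tdrd7a. It moved that at 6 hpf between -0.238 and 0.113 for buc, -0.04 and 0.221 for ddx4, -0.234 and 0.0137 for nanos3, -0.049 and 0.274 for piwil1, -0.135 and 0.144 for piwil2, and -0.159 and 0.129 for tdrd7a. It moved the difference of effects between -0.0618 and 0.222 for dazl, -0.152 and 0.153 for ddx4, -0.0896 and 0.234 for piwil1, -0.192 and 0.0867 for piwil2, and -0.171 and 0.117 for tdrd7a. The ddx4 difference between stages in DMSO embryos lay between -0.284 and 0.0209.

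The number of pools limits the precision. Signals of different clusters cannot be set against each other, and whole embryos dilute what happens in germ cells.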

Other observations

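For some of the germ plasm genes the lowest pool had the same number in all 4 groups. The highest pool had the same number in all 4 groups for none of the germ plasm genes, against 4.91% of all clusters. ddx4 was lowest in pool 1 of all 4 groups, with log2 signals of 8.99 (TDCIPP, 6 hpf), 8.91 (DMSO, 6 hpf), 9.04 (TDCIPP, 2 hpf) and 9.02 (DMSO, 2 hpf). piwil2 was lowest in pool 3 of all 4 groups, with 6.83 (TDCIPP, 6 hpf), 6.93 (DMSO, 6 hpf), 8.55 (TDCIPP, 2 hpf) and 8.50 (DMSO, 2 hpf). The dimmer piwil1 cluster was lowest in pool 2 of all 4 groups. Of all 61240 clusters, 4.82% had the same lowest pool number in all 4 groups, and of those with a mean log2 signal of at least 5, 6.4%. These patterns were picked out with the values already in view.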
